A study of Homo sapiens with 36 samples.

Results

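Gene expression after 48 h of 10 mM acetaminophen was compared with that after 48 h of the solvent DMSO at 0.5% in HepG2 cells, an established human line grown from a liver tumour. The comparison holds the 3 arrays titled with that dose and time and the 3 titled with the solvent and that time, which are 6 of the 36 arrays of the series, and every one of its 18919 gene rows. The other 30 arrays hold 0.5 mM acetaminophen at 48 h and all 3 treatments at 12, 24 and 72 h, with 3 arrays in each of the 12 groups. All groups received fresh medium with compound or solvent near confluence, and the labels call the 3 arrays of a group biological replicates. The labels leave unclear whether the acetaminophen medium also held DMSO, so the compound and a difference in solvent cannot be told apart. For every sample the extraction text gives 24 h, so the time of 48 h rests on the titles and the time labels.

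Acetaminophen is an analgesic that the liver clears mainly by glucuronidation and sulfation. A smaller part is oxidised, largely by cytochrome P450 enzymes, to a reactive quinone imine that glutathione takes up, and in overdose the drained glutathione leaves liver proteins open to attack. HepG2 cells keep many functions of hepatocytes, but they are a single tumour line with low activity of several of these oxidising enzymes. The rows carry Ensembl identifiers with no gene names, and no name could be paired with any of the 18919, so the liver and cell type markers were not examined and genes are described by how they behaved on the arrays, with 4 given by identifier.

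Each value is a log2 level of one gene on one array, so a difference of 1 is a 2-fold change. It comes from pooled cells, in which fewer cells that express a gene and less of its RNA per cell cannot be told apart. Within the groups of 48 h any pair of arrays correlated across genes with r of at least 0.991. The number of arrays limits the precision, and the median standard error of the 48 h difference was 0.12 on the log2 scale. The first DMSO array of 48 h stood apart from the others of its group. It differed at least 2-fold from the second in 440 genes and from the third in 436, whereas those other arrays differed from each other in 77. Its correlation with the DMSO arrays of 72 h averaged 0.996, against 0.991 with the other arrays of its own group. The 10 mM arrays differed among themselves in 20 to 156 genes, and from the DMSO arrays in 1450 to 2143. The main results below are therefore given with and without the first DMSO array.

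A position in culture time was computed for each array by projecting it, over all genes, on the change of the 0.5 mM arrays from 24 h (position 0) to 72 h (position 1). The 3 DMSO arrays of 48 h lay at 0.994, 0.647 and 0.567, the first near the DMSO arrays of 72 h at 1.06 to 1.09. The 0.5 mM arrays of 48 h lay at 0.444, 0.462 and 0.425, and the 10 mM arrays of 48 h at 0.313, 0.336 and 0.308. The 3 groups of 48 h thus did not overlap in this position, the 10 mM arrays being the lowest and the DMSO arrays the highest. At 10 mM the position had been 0.207 to 0.300 at 24 h and was 0.335 to 0.362 at 72 h, a range that meets that of 48 h. The DMSO arrays of 24 h lay lower, at 0.089 to 0.154, and at 12 h the means were 0.092 at 10 mM and -0.051 in DMSO. The order of 10 mM and DMSO was thus the reverse at these earlier times, so the position is not a measure of culture time alone.

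**Figure D1:**
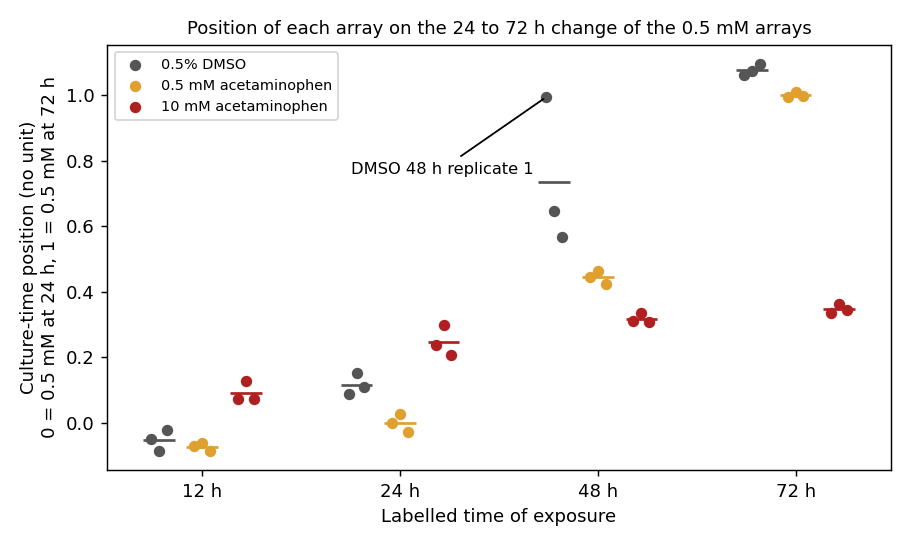
Culture-time position of all 36 arrays (vertical axis, no unit, 0 and 1 being the means of the 0.5 mM arrays at 24 and 72 h) by labelled time (horizontal axis); points are arrays, short lines group means, colours treatments. At 48 h the 10 mM arrays sit at 0.308 to 0.336, below every DMSO array, and the first DMSO array sits at 0.994.

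At 48 h a large share of the genes differed between 10 mM and DMSO. In 10 mM 3081 genes were higher (16.3% of those tested) and 2818 were lower (14.9%), together 31.2% (limma, Benjamini-Hochberg adjusted p under 0.05 over all genes, n = 3 arrays a group). The median change of the called genes was a log2 of 0.67 for the higher and of -0.63 for the lower ones. Without the first DMSO array 2752 were higher (14.5%) and 2601 lower (13.7%), together 28.3%, and 5020 genes were called in both fits. Which direction held more genes depended on the scaling, since centring each array on its median gave 2769 higher and 3225 lower genes and a second quantile normalization 2921 and 3122.

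Changes of at least 4-fold and of at least 8-fold were more often rises than falls. At least 4-fold, 230 genes were higher and 97 lower, and at least 8-fold, 58 were higher and 25 lower, but at least 16-fold, 5 were higher and 8 lower, a balance that turned to 11 and 9 without DMSO replicate 2 and to 19 and 9 without DMSO replicate 3. The excess of rises rested in part on the first DMSO array: without it 161 genes were higher and 118 lower at least 4-fold, 35 and 31 at least 8-fold, and 1 and 10 at least 16-fold, while leaving out any other of the 6 arrays gave 217 to 263 higher at least 4-fold. At 24 h, 84 genes were higher and 117 lower at least 4-fold, and at 72 h these numbers were 335 and 109.

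**Figure D2:**
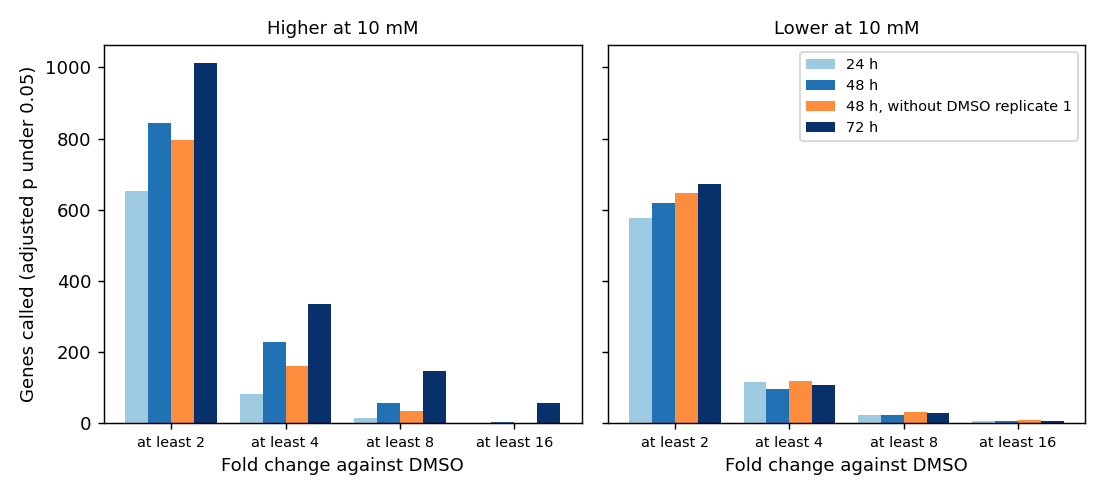
Number of genes called (adjusted p under 0.05; vertical axis) as higher (left) or lower (right) in 10 mM than in DMSO, by minimum fold change (horizontal axis), at 24 h, 48 h, 48 h without the first DMSO array, and 72 h. At 48 h 230 genes were higher and 97 lower at least 4-fold, and without that array 161 and 118.

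The arrays showed the same directions one by one. In 3539 genes (18.7%) every 10 mM array lay above every DMSO array, and in 3269 (17.3%) below. Of the 5899 called genes, 5378 (91.2%) had no overlap between the groups. Without the first DMSO array, which leaves fewer arrays to overlap, 4277 genes lay above and 4178 below. Of the 5353 genes then called, 5268 (98.4%) had no overlap, against 44.7% of all genes. Because the calls rest on the same arrays, high shares without overlap among called genes were favoured in advance. Arrays of the same number gave changes of the same sign 3 times of 3 in 5792 of the 5899 called genes (98.2%), against 52.9% of all genes, although the calls were made from these same arrays. The 3 changes by number correlated across genes with r of 0.80, 0.82 and 0.85. The pair numbered 1 held 351 rises of at least 4-fold, the second pair 178 and the third pair 152, whereas falls of that size numbered 127, 141 and 107.

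Called genes were spread over all but the dimmest levels. Of the 8359 genes with a mean level under 3 over the 36 arrays, 7.07% were called at 48 h, and of the 2359 between 3 and 4, 34.6%. Above that, the share was 52.8% for levels of 4 to 6, 55.6% for 6 to 8, 57.1% for 8 to 10 and 54.5% for 10 and more. Without the first DMSO array the shares from level 4 up were 47.7%, 52.0%, 53.2% and 51.4%. Array medians lay between 3.32 and 3.46, so many rows held little signal. Of the 97 falls of at least 4-fold, 32 ended below a level of 4, and of the 230 rises of that size, 56 started below it, so that the sizes of these changes are uncertain.

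Control rows named in the table gave a few genes by name. GAPDH, a glycolytic enzyme, had levels of 13.63, 13.77 and 13.64 in its middle row on the 10 mM arrays and of 13.66, 13.94 and 13.90 on the DMSO arrays, ranges that overlap. Its 5' row averaged 13.51 ± 0.06 at 10 mM and 13.78 ± 0.16 in DMSO (SD, n = 3), with no overlap and the smallest p that 3 arrays against 3 allow (0.1, exact permutation test, two-sided). Actin, a protein of the cytoskeleton, lay at 12.94 to 13.05 at 10 mM and at 12.60 to 12.90 in DMSO in its middle row, a difference of 0.21 without overlap (n = 3; exact permutation p = 0.1, two-sided). Its 3' row overlapped between the groups, with 13.89, 13.71 and 13.86 at 10 mM and 13.45, 13.82 and 13.74 in DMSO.

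The control rows also differed between the groups in ways that bear on RNA quality and labelling. The 3' row of GAPDH exceeded its 5' row by 0.28, 0.30 and 0.19 at 10 mM and by 0.14, 0.06 and 0.03 in DMSO, without overlap. With this difference as a covariate, 5403 genes were called at 48 h, of which 4966 were among the 5899. As the difference did not overlap between the groups, the covariate cannot fully separate RNA quality from treatment. The same measure of actin overlapped, at 2.39, 2.23 and 2.00 against 2.45, 2.36 and 2.05. The spike-in dap, a bacterial transcript added to the RNA, was weak on both arrays numbered 1, at 6.30 in 10 mM and 3.15 in DMSO, against 11.6 to 13.3 on the other 4 arrays. Without both of those arrays 4888 genes were called, of which 4617 were among the 5899. On the 0.5 mM arrays of 48 h the actin difference was 2.25, 3.63 and 2.02 and that of GAPDH 0.15, 0.41 and 0.07. Without the second of these arrays, 4910 genes were called between 10 mM and 0.5 mM. On the 0.5 mM arrays of 72 h, which set position 1, the actin difference was 2.39, 2.15 and 3.97. The position was not recomputed without the last of them.

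The 4 genes given by identifier were chosen as the largest changes among genes called and without overlap on these same arrays. Their p-values and their lack of overlap with DMSO at 48 h are therefore descriptive and no independent support. The choice also favoured a larger change at 48 h than at 24 h. Their SEs come from a spread shared over the 12 groups of the fit, not from the 6 arrays alone. Of these 4 genes, ENSG00000102265 had the largest rise. Its level was 11.44, 11.83 and 11.32 on the 10 mM arrays, 6.11, 6.58 and 5.95 on the DMSO arrays and 5.58, 6.61 and 6.54 on the 0.5 mM arrays of 48 h. The 10 mM arrays lay far above all others of that time, and the 0.5 mM and DMSO arrays overlapped. The log2 change against DMSO was 5.31 ± 0.25 (SE, n = 3; limma adjusted p = 3.8e-16) and 5.26 without the first DMSO array. It had been 2.13 at 12 h and 3.84 at 24 h and was 5.08 at 72 h. The 48 h change exceeded that of 24 h by 1.47 (limma adjusted p of the difference 0.0077), and the 72 h change differed from it by -0.23 (adjusted p = 0.93). For this difference from 24 h, the 10 mM level was higher by 0.78 at 48 h than at 24 h and the DMSO level differed by -0.70.

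In ENSG00000167900 the solvent level moved more with time than the 10 mM level, by -2.87 against 0.50 from 24 to 48 h. Its level was 9.51, 9.44 and 9.65 at 10 mM, 6.81, 7.32 and 7.07 at 0.5 mM and 3.31, 5.50 and 6.03 in DMSO. The 3 groups did not overlap, with 0.5 mM between the others and the first DMSO array the lowest of all. The log2 change against DMSO was 4.59 ± 0.33 (SE, n = 3; limma adjusted p = 3.7e-12), and 3.77 ± 0.16 without that array. The DMSO arrays of 48 h had an SD of 1.44 and the 10 mM arrays of 0.11. With only the arrays of these groups fitted, the limma adjusted p was 0.0014. In DMSO the mean level was 8.87, 7.81, 4.95 and 3.22 at 12, 24, 48 and 72 h, whereas at 10 mM it was 9.62, 9.03, 9.54 and 9.74. The change at 48 h exceeded that at 24 h by 3.37 (limma adjusted p of the difference 2.0e-05), and the change at 72 h exceeded that at 48 h by 1.93 (adjusted p = 0.047), or by 2.75 without the first DMSO array.

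ENSG00000112337 and ENSG00000196660 had the largest falls, and their order turned when the first DMSO array was left out. The level of ENSG00000112337 was 2.19, 2.57 and 2.35 at 10 mM, 6.34, 6.92 and 5.99 at 0.5 mM and 9.42, 7.76 and 7.01 in DMSO. Again the 3 groups did not overlap, and the first DMSO array was the highest. The log2 change was -5.69 ± 0.36 (SE, n = 3; limma adjusted p = 1.4e-13), and -5.01 without that array. The SDs at 48 h were 1.23 in DMSO and 0.19 at 10 mM. With only the arrays of these groups fitted, the limma adjusted p was 0.00030. The mean in DMSO was 4.48 at 12 h and 4.48 at 24 h, 8.06 at 48 h and 9.93 at 72 h, while the 10 mM mean differed by -0.14 between 24 and 48 h. The change at 48 h lay below that at 24 h by a log2 difference of -3.72 (limma adjusted p = 1.4e-05). The 72 h change differed from that of 48 h by -1.61 (adjusted p = 0.16), and by -2.28 without the first DMSO array (adjusted p = 0.00028).

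ENSG00000196660 fell by a similar amount, with DMSO means between 8.55 and 8.85 at all 4 times. Its level was 2.91, 3.28 and 3.36 at 10 mM, 9.19, 9.11 and 9.04 at 0.5 mM and 8.29, 8.73 and 9.53 in DMSO, so that the 10 mM arrays lay far below the others. The log2 change was -5.67 ± 0.30 (SE, n = 3; limma adjusted p = 5.4e-15), and -5.94 without the first DMSO array. It was -5.22 at 12 h, -5.49 at 24 h and -4.99 at 72 h. Its change at 48 h differed from that at 24 h by -0.17 (limma adjusted p = 0.91) and that at 72 h from it by 0.68 (adjusted p = 0.68). The 10 mM levels of ENSG00000112337 and ENSG00000196660 lay near or below the array medians, so the sizes of both falls are uncertain.

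**Figure D3:**
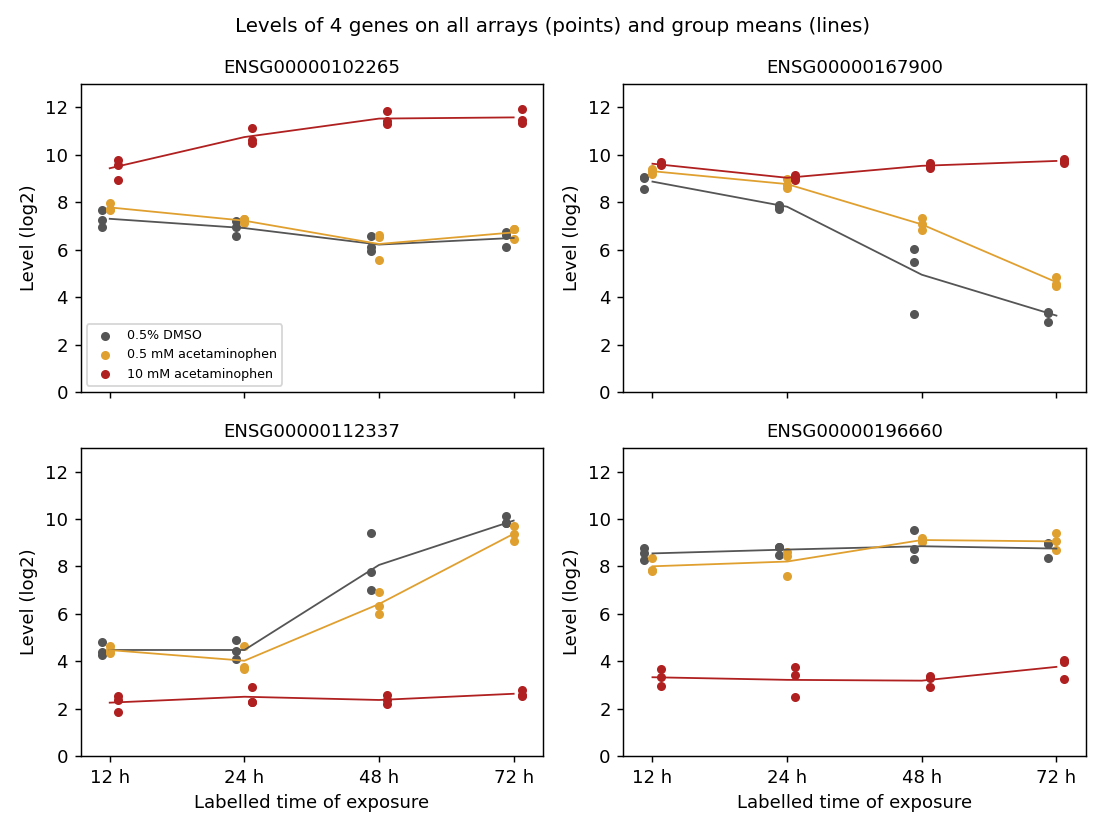
Log2 level (vertical axis) of 4 genes on all 36 arrays by labelled time (horizontal axis), coloured by treatment; points are arrays and lines join group means. At 48 h the 10 mM arrays of ENSG00000167900 sit at 9.44 to 9.65 and its DMSO arrays at 3.31 to 6.03, while the DMSO means of ENSG00000196660 stay between 8.55 and 8.85.

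The next question was how the genes that changed with culture time in the solvent behaved at 48 h under 10 mM. The gene groups were formed from the DMSO arrays of 24 and 72 h, none of which enters the 48 h means. Between these times 2329 genes rose in DMSO and 2232 fell, together 24.1% (limma adjusted p under 0.05), and 11308 were steady, that is not called and changed by under 0.2 on the log2 scale. Genes that rose in the solvent were more often lower than higher in 10 mM at 48 h: 824 were lower (35.4%) and 442 higher (19.0%), with a median log2 change of -0.14. Over all genes, many of them dim, 14.9% were lower and 16.3% higher. Among genes with a mean level of at least 4, 38.4% of those that rose were lower and 20.5% higher. Of all 8201 genes of that level 27.5% were lower and 27.2% higher, so only the lower share lay above that of all. Genes that fell in the solvent showed the opposite, with 951 higher (42.6%), 432 lower (19.4%) and a median of 0.20. Those of them with a mean level of at least 4 were higher in 44.7% and lower in 19.7%. The median over all genes was 0.01. With that first DMSO array left out both medians were closer to 0, at -0.07 for the genes that rose and 0.11 for those that fell, with 670 lower and 473 higher among the former and 806 higher and 513 lower among the latter.

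The pattern was widest in the genes that moved most in the solvent. Of the 624 that fell at least 2-fold in DMSO from 24 to 72 h, 420 (67.3%) were higher in 10 mM at 48 h and 76 (12.2%) lower. Over all genes these shares were 16.3% and 14.9%, and over genes with a mean level of at least 4 they were 27.2% and 27.5%. The median of the 624 was 1.02, and 150 were higher at least 4-fold. Leaving out the first DMSO array, 376 were higher and 104 lower, the median was 0.78, and 92 were higher at least 4-fold. Of the 390 that rose at least 2-fold, 175 were lower (44.9%) and 68 higher (17.4%), with a median of -0.37. Without that array 142 were lower and 86 higher, with a median of -0.23. Seen from the large changes, 168 of the 230 genes higher at least 4-fold at 48 h (73.0%) had fallen in DMSO, against 11.8% of all genes, and without the first DMSO array 104 of 161 (64.6%). Among genes with a mean level of at least 4, 166 of the 218 higher at least 4-fold had fallen, against 1921 of all 8201. Of the 97 genes lower at least 4-fold, 35 (36.1%) had risen in DMSO, against 12.3% of all genes, and 24 (24.7%) had fallen, against 11.8%. Of the 94 with a mean level of at least 4, 33 had risen, against 1769 of all 8201, and 24 had fallen, against 1921. For these falls the excess of risen over fallen genes was not seen without the first DMSO array, where 35 of 118 (29.7%) had risen and 34 (28.8%) had fallen.

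The same groups were less uneven in 10 mM against 0.5 mM at 48 h, a comparison that uses no solvent array but shares the 10 mM arrays. Of the genes that rose in DMSO, 605 were lower and 522 higher than at 0.5 mM, with a median of -0.04, and of those that fell, 642 were higher and 553 lower, with a median of 0.03. Of the 624 with a fall of at least 2-fold in the solvent, 272 were higher (43.6%) and 115 lower (18.4%), with a median of 0.39. At least 4-fold 21 were higher and 26 lower, against 150 and 14 in the comparison with DMSO. The difference between both comparisons was not tested, because they share arrays. The medians of the rising and falling groups kept their signs under both other scalings in both comparisons.

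Many genes without a change in the solvent also differed. Among the steady genes with a mean level of at least 4, which avoids the dimmest rows, 609 of 2696 were higher in 10 mM at 48 h (22.6%) and 706 lower (26.2%), against 27.2% and 27.5% of all 8201 genes of that level. When the first DMSO array was left out, 561 were higher and 649 lower. Only a few of these changes were large, 16 being higher and 18 lower at least 4-fold, or 14 and 20 without the first DMSO array. At this level 218 genes were higher and 94 lower at least 4-fold in all, or 153 and 112 without that array.

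**Figure D4:**
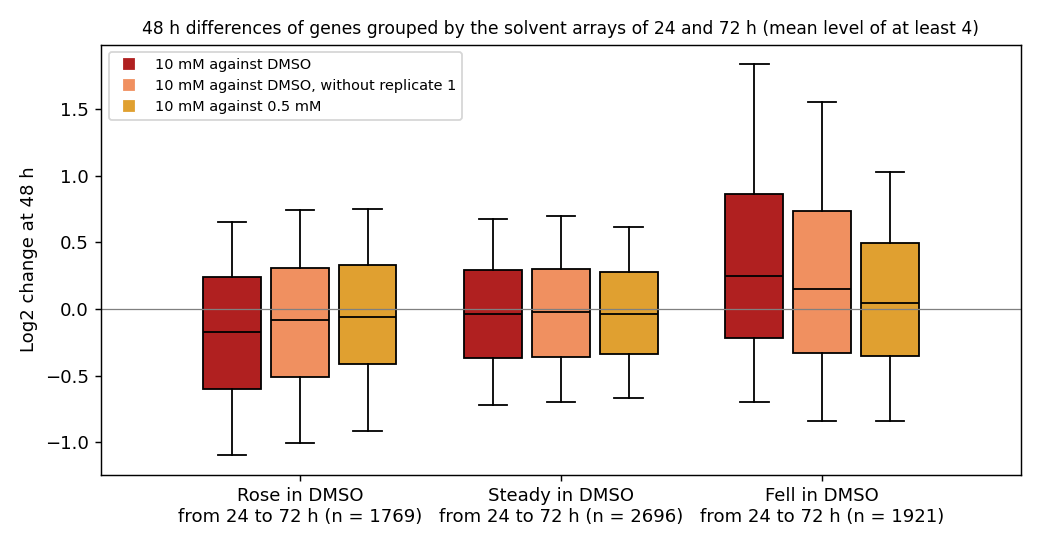
Log2 change at 48 h (vertical axis) of genes with a mean level of at least 4 that rose, stayed steady or fell in DMSO from 24 to 72 h (horizontal axis, with the number of genes), for 10 mM against DMSO with all arrays, without the first DMSO array, and for 10 mM against 0.5 mM; boxes span the quartiles with the median as a line, whiskers the 10th to 90th percentiles. The median of the falling genes was 0.24 against DMSO, 0.15 without that array and 0.05 against 0.5 mM.

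The 48 h response was then set beside those of 24 and 72 h, which were measured on other arrays. Across all 18919 genes the 48 h changes correlated with those of 12 h at r of 0.58, of 24 h at 0.74 and of 72 h at 0.91, and without the first DMSO array at 0.62, 0.79 and 0.85. These values are across genes, which are not independent replicates. The share of genes called at the other times was 26.6% (12 h), 29.0% (24 h) and 33.4% (72 h). Of the 2891 genes higher in 10 mM at 24 h, 1965 (68.0%) were also higher at 48 h, against 16.3% of all genes, and 50 lower, with a median 48 h change of 0.52. Of the 2591 lower at 24 h, 1730 (66.8%) were lower at 48 h, against 14.9% of all genes, and 52 higher, with a median of -0.53. Leaving out the first DMSO array, 1878 of the former were higher and 28 lower, and 1716 of the latter lower and 37 higher. Of those higher at 72 h, 2492 of 3207 (77.7%) were higher at 48 h and 3 lower, and of those lower at 72 h, 2228 of 3116 (71.5%) were lower and 5 higher. With the first DMSO array left out these were 2211 (68.9%) higher and 20 lower, and 1960 (62.9%) lower and 10 higher. At 12 h the shared share was smaller, with 1516 of 2690 genes (56.4%) higher at both times and 1365 of 2338 (58.4%) lower at both. Without the first DMSO array of 48 h these were 1459 (54.2%) and 1348 (57.7%).

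Few genes that were steady in the solvent were called in opposite directions at 24 and 48 h. Choosing genes by a steady solvent level makes such a reversal less likely in advance. Over all 11308 steady genes 10.2% were higher and 8.5% lower in 10 mM than in DMSO at 48 h. Of the 1057 steady genes that were higher in 10 mM at 24 h, 756 (71.5%) were higher at 48 h and 1 was lower, with a median change of 0.48. Of the 924 steady genes that were lower at 24 h, 623 (67.4%) were lower and 3 higher, with a median of -0.48. Without the first DMSO array the numbers were 690 and 3 of the former and 580 and 3 of the latter. Against 0.5 mM they were 709 and 2, and 602 and 1, where 9.4% of all steady genes were higher and 8.5% lower. The 102 genes called in opposite directions at 24 and 48 h comprised 52 that went from lower to higher and 50 from higher to lower, or 49 and 32 without the first DMSO array.

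The size of the effect differed between 24 and 48 h in 1385 genes (7.32% of those tested; limma, adjusted p of the difference under 0.05). The 48 h change lay above the 24 h change in 761 genes (4.02%) and below it in 624 (3.30%). These were 551 (2.91%) and 458 genes (2.42%) without the first DMSO array, 5.33% together. Among the genes called higher at 48 h and not called at 24 h, 1064 in number, the difference itself passed the test in 312, and among the 1038 called lower at 48 h and not called at 24 h, in 241. The counts were 196 of 786 and 162 of 815 without the first DMSO array. For most genes called at 1 of both times alone, a difference between the times was therefore not shown.

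In the genes whose effect differed between 24 and 48 h, the solvent level usually moved more than the 10 mM level. In the 761 with a more positive effect at 48 h, the DMSO level changed by a median of -0.72 and the 10 mM level by 0.17, and DMSO moved more in 552 (72.5%). In the 624 with a more negative effect, the medians were 0.51 in DMSO and -0.25 at 10 mM, and DMSO moved more in 437 (70.0%). DMSO moved more in 71.9% and 65.5% without its first array of 48 h. Over all genes 2601 (13.7%) differed between 24 and 48 h in DMSO and 1166 (6.16%) at 10 mM. In the fit without that array, which leaves fewer DMSO arrays at 48 h, these were 1774 (9.38%) and 1326 (7.01%).

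**Figure D5:**
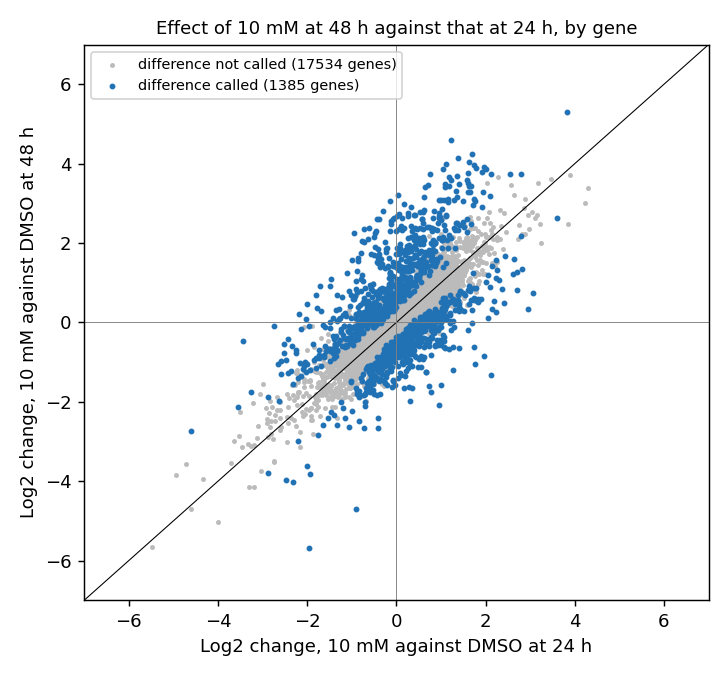
Log2 change in 10 mM against DMSO at 48 h (vertical axis) and at 24 h (horizontal axis) of all 18919 genes; blue points are the 1385 genes with an adjusted p of the difference between the times under 0.05, grey points the others, and the diagonal marks equal changes. Of the blue genes 761 lie above the diagonal and 624 below it.

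Between 48 and 72 h the effect differed in 132 genes (0.698%), 95 (0.502%) with a more positive and 37 (0.196%) with a more negative effect at 72 h. This count depended on single arrays. Without the first DMSO array of 48 h it was 777 (4.11%), 537 more positive (2.84%) and 240 more negative (1.27%), which held all 132. Without the second or the third DMSO array of 48 h it was 33 each time. It was 64 and 52 without the first or second 10 mM array of 48 h, 79, 76 and 53 without replicate 1, 2 or 3 of the 10 mM arrays of 72 h, and 79 and 61 without replicate 2 or 3 of the DMSO arrays of 72 h. With arrays paired by replicate number 322 genes were called. In the 95 genes the DMSO level changed by a median of -1.12 from 48 to 72 h and the 10 mM level by 0.13, and in the 37 by 0.76 and -0.19. At 10 mM itself 84 genes (0.444%) differed between 48 and 72 h, 48 higher and 36 lower at 72 h.

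Against 0.5 mM at 48 h, the high dose gave 2708 higher (14.3%) and 2699 lower genes (14.3%), together 28.6%. Changes of at least 4-fold were 68 rises and 121 falls. The 4 genes above had log2 differences from 0.5 mM of 5.29 for ENSG00000102265, 2.47 for ENSG00000167900, -4.04 for ENSG00000112337 and -5.93 for ENSG00000196660, each with an adjusted p under the threshold. In 2556 genes every 10 mM array lay above all 6 arrays of both other groups and in 2418 below, together 26.3% of all genes. Between 0.5 mM and DMSO at 48 h 652 genes (3.45%) were called, 492 higher and 160 lower at 0.5 mM, and 201 (1.06%) without the first DMSO array, 186 higher and 15 lower.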

How the data were processed

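The authors deposited log2 levels, 1 column per Affymetrix array and 1 row per Ensembl identifier. Per the submitters' processing notes they come from RMA, whose settings and version, like the probe set definition and the genome build, were not given in the sources used here. RMA makes the arrays' distributions alike, which would hide a shift of most genes in 1 direction. The table held 18981 rows, of which 62 control rows stayed out of the fit, and 0 values were missing. The members and lists were chosen with earlier results of these data known.

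In R 4.3.3, limma 3.58.1 (functions lmFit and eBayes) fitted 12 group means to the 36 arrays, with 24 residual degrees of freedom, and p-values were Benjamini-Hochberg adjusted over 18919 genes with a threshold of 0.05. Differences between times are contrasts of that fit. On simulated arrays with 200 changed genes of 18919, the 48 h comparison recovered 58%, 96% and 100% of simulated log2 changes of size 0.5, 1 and 2, and 8 of 185 calls were false. For the difference between 24 and 48 h these were 20%, 88% and 100%, with 11 false calls of 165. The simulated noise was independent and normal, with a gene's spread equal in all groups, no replicate effect and no array that stood apart. The real arrays differ in this and in the share of genes called, so these rates need not hold for them.

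The reference table (GRCh38.p14, 59792 rows) held no Ensembl identifier, and 0 of 18919 matched. The rule for named genes, which needed symbols, the 39 gene lists, the markers and all sequences were therefore not used. In place of that rule, the 2 largest rises and 2 largest falls are given among genes called with and without the first DMSO array of 48 h, without overlap of the groups, and with a mean level of at least 5 in the higher group (1692 rises and 1628 falls qualified). That rule, the gene groups from other arrays and the culture-time position were set after the data were seen.

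Replicate numbers come from the titles. Deviations from the group means of same-numbered arrays correlated with r of 0.14, 0.32 and 0.24 between 10 mM and DMSO at 48 h, 0.22, 0.28 and 0.18 between both doses, 0.12, 0.35 and 0.17 at 24 h and 0.27, 0.22 and 0.20 at 72 h. All were over 0.1, which was the criterion for pairing arrays by number. Most correlations of differently numbered arrays were negative, but some also passed it, at 0.12 at 24 h and 0.17 between both doses. Deviations from group means cancel within a group, so positive values for same numbers force negative ones on balance elsewhere. The negative signs are thus no separate support for pairing. The main counts come from the fit without pairing, and the replicate block is the paired alternative. Alternatives were fits of fewer arrays, the replicate block, other scalings, a filter on low levels, another variance prior, array weights, a minimum change and each array left out. A covariate for the ends of GAPDH, weak spike-in arrays left out and both 48 h arrays numbered 1 left out were alternatives chosen after seeing the data. Figures were made in matplotlib 3.10.9.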

Additional observations from a re-analysis of the deposited data

Results flagged for a closer look

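The effect of 10 mM differed between 24 and 48 h in 1385 genes and between 48 and 72 h in 132, by limma's test of the difference itself (adjusted p under 0.05). The 48 h effect exceeded the 24 h effect by a log2 of 1.47 in ENSG00000102265 and of 3.37 in ENSG00000167900, and lay below it in ENSG00000112337, with a difference of -3.72. As these genes were chosen for large 48 h changes on the same arrays, a larger effect at 48 h than at 24 h was favoured in advance. The 72 h effect exceeded the 48 h effect by 1.93 in ENSG00000167900 (limma adjusted p = 0.047).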

How the results depend on the processing

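The 48 h count of 5899 genes was 1370 when a change of at least 1.5-fold was tested for and 4208 to 6482 under the other alternatives, and 5353 to 5515 with 1 array left out. The count against 0.5 mM (5407) was 991 at 1.5-fold and 4817 to 5021 with 1 array left out. The count for 48 against 24 h (1385) was 190 at 1.5-fold, 650 with only the arrays of the groups compared, 612 without the 6 arrays of weak spike-ins, 860 without both 48 h arrays numbered 1, and 1009 to 1557 with 1 array left out. The count for 72 against 48 h (132) was 3 with only the 18 arrays of both times, 3 at 1.5-fold, 556 with array weights, 71 with the GAPDH covariate, 570 without the arrays of weak spike-ins, 618 without both arrays numbered 1, and 33 to 777 with 1 array left out. With only the arrays of the groups compared limma called 0 genes there, against 1376 at an unadjusted p under 0.05. The causes of these shifts were not tested, apart from fewer arrays or a stricter null hypothesis where an alternative sets them. The replicate block gave 6482, 6005, 1928 and 322 genes in the order above, moved only the last by over 1.5 times, and changed no call of the 48 h change of the 4 genes; their differences between times were not run with it. The changes of the 4 genes at 48 h kept direction and call under all alternatives run, with log2 ranges of 5.01 to 5.49 for ENSG00000102265, 3.77 to 5.13 for ENSG00000167900, -6.22 to -4.92 for ENSG00000112337 and -5.94 to -5.33 for ENSG00000196660. As these genes were chosen for large changes called with and without the first DMSO array, keeping direction and call was largely fixed by the choice. No other setting was run for gene lists, for want of gene names.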
